A study of Mus musculus with 6 samples.

Results

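The natriuretic peptide system was followed through 9 genes: the peptide genes Nppa, Nppb and Nppc, the processing enzymes Corin and Furin, the receptors Npr1, Npr2 and Npr3, and the degrading enzyme Mme. They were the probe sets, the groups of short oligonucleotides that read a transcript, whose annotation named exactly 1 of these symbols. That gave 12 of the 45101 probe sets on the array, and each gene was represented by its brightest probe set over the 6 arrays. Of the 9 genes, 8 passed the filter on dim probe sets and were tested among 11113 genes, and Nppc did not pass. The levels came from whole hearts of 3 wild-type and 3 FOG-2R3K5A sibling embryos at embryonic day 16.5, 1 array per sample, on a background mixing C57/B6 and 129 S6. The embryos came from matings of double heterozygous parents, and the labels give neither the zygosity of the FOG-2R3K5A embryos nor whether a sample was 1 heart or several. FOG-2R3K5A hearts are called mutant below. FOG-2 is encoded by Zfpm2 and works in the heart as a partner of GATA factors. Proteins with the R3K5A changes are known to have lost the contact with NuRD, a complex that remodels and deacetylates chromatin. The question here was how the natriuretic peptide genes and the enzymes and receptors around them differed between the genotypes.

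Natriuretic peptides are hormones and local signals that lower blood pressure and restrain growth of heart muscle and scar tissue. Nppa encodes atrial natriuretic peptide (ANP), Nppb encodes B-type natriuretic peptide (BNP) and Nppc encodes the C-type peptide. In the fetal heart Nppa and Nppb are transcribed in the atria and in the trabecular muscle of the ventricles. Their products are made as precursors, which corin, a serine protease on the surface of cardiomyocytes, and furin, a protease of the Golgi, cut to the active peptides. ANP and BNP bind NPR-A, the product of Npr1, and the C-type peptide binds NPR-B, the product of Npr2. Both receptors make cyclic GMP. NPR-C, the product of Npr3, binds all of these peptides and clears them, and neprilysin, the product of Mme, degrades them.

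Values are log2 intensities, and an intensity is the brightness of a probe set on a scale that does not compare between probe sets, so each gene is compared only with itself. A gene was called where the limma p, after Benjamini-Hochberg adjustment across every gene in the fit, was under 0.05. The p-values set the difference between the genotypes against the spread within them, which limma moderates across genes. They rest on these 6 samples only. In whole hearts, fewer cells of a type and less RNA per cell cannot be told apart. Array medians ran from 77.4 to 84.1 intensity units. Wild-type replicate 1 correlated with a mutant array at up to 0.99 over the tested genes, while wild-type arrays correlated with each other at 0.982 to 0.986. The heart label held, with all 7 cardiomyocyte markers above the filter, 0 of them called, and a summed intensity of 55994 to 59448 in wild-type and 58121 to 59903 in mutant hearts. Of 7 epicardial markers 3 were called higher, and Aldh1a2, Tbx18 and Wt1 had differences of -0.22, -0.11 and -0.06 that did not pass. Upk1b, higher in every mutant than in any wild-type heart, had 0.59 and did not pass either. All 7 epicardial markers together summed to 4670 to 4788 in wild type and 5519 to 6075 in mutants. Lung and airway markers summed to 167 to 277 in wild type, to 169 in mutant replicate 2 and up to 3452 in the other mutants, with Scgb1a1 and Nkx2-1 below the filter. The part of epicardial cells or lung tissue in the results was not tested.

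Of the 8 tested genes 2 rose in mutant hearts, Corin and Furin, 0 fell and 6 did not pass. Among all genes tested 1.76% were called, 1.39% as higher and 0.369% as lower. Besides the enzymes, Nppb and Nppa read higher in every mutant heart than in any wild-type heart. These 4 are 4 of the 8 tested genes, and such a separation upward was seen in 11.5% of all genes tested. The median difference of the 8 was 0.16 on the log2 scale, against -0.01 over all genes tested. An unadjusted p under 0.05 with a higher mutant level was found for 4 of the 8, the same 4 genes, and for 8.4% of all genes tested. The plot of every array shows the mutant samples above the wild-type samples in these 4 genes.

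**Figure D1:**
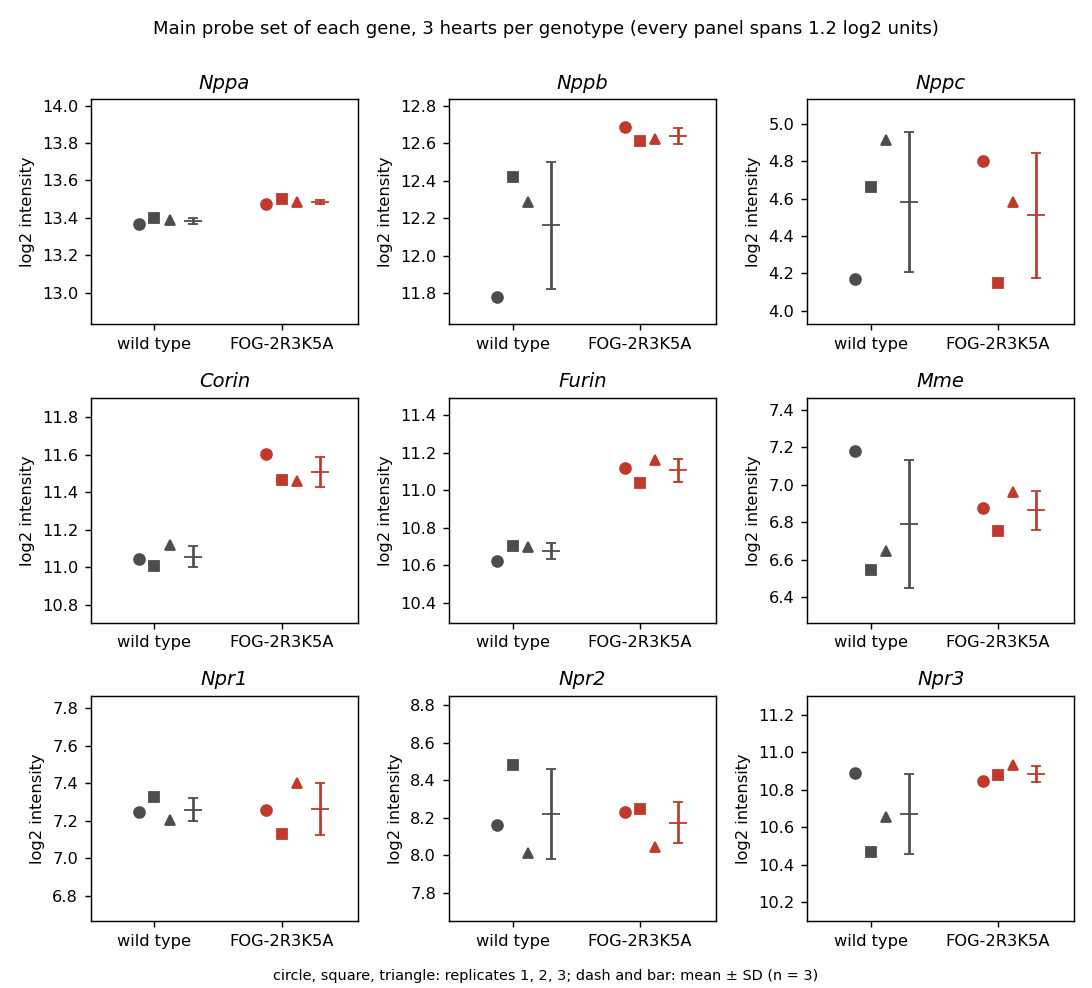
Log2 intensity of the main probe set of each of the 9 genes on every array. Grey marks are wild-type and red marks FOG-2R3K5A hearts (circle, square and triangle for replicates 1, 2 and 3), with the mean and SD of 3 beside them, and every panel spans the same 1.2 log2 units. Corin and Furin separate by more than 0.3 log2 units, Nppb separates with a wide wild-type spread, and Nppa separates by under 0.1.

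The peptide genes come first because they are the signal that the rest of the system handles. Nppa read 13.37, 13.40 and 13.39 in wild-type replicates 1, 2 and 3 and 13.47, 13.50 and 13.48 in the mutants. The groups did not overlap, but the shift was small, 0.10 (SE 0.03, 1.07-fold, 95% interval 0.03 to 0.17), and did not pass (adjusted p = 0.174 by limma). It moved to 0.06 with quantile normalization and to 0.14 with median centring, and passed with neither. The Nppa probe set was among the brightest on the array, ranking from 6 to 19 of 45101 on single arrays, at or near the brightest array controls (13.38 to 13.56). At that brightness differences of any gene were small. Of 143 probe sets with a mean above 13 log2 units, 0 differed by more than 0.4, and the 95th percentile of their absolute differences was 0.10. Their median difference, mutant minus wild type, was 0.04, against -0.01 over all genes tested. Nppa ranked 6 of these 143 by its difference. Whether the array compresses differences at that brightness was not tested, so the small value does not show an equal transcript level.

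Nppb read 11.78, 12.42 and 12.29 in wild-type replicates 1, 2 and 3. In mutant replicates 1, 2 and 3 it read 12.69, 12.61 and 12.62. The mutants lay close together (SD 0.04, n = 3), all above the highest wild-type heart, while the wild-type hearts were spread (SD 0.34, n = 3), with replicate 1 the lowest. The difference was 0.48 (SE 0.14, 1.39-fold, 95% interval 0.17 to 0.79), and it did not pass (adjusted p = 0.145 by limma). Among the 649 probe sets with means of 12 to 13 log2 units it was the largest rise. Without wild-type replicate 1 the difference fell to 0.29 and passed, with a smaller SE of 0.05 (adjusted p = 0.0322 by limma). Without wild-type replicate 2 it was 0.61 and did not pass.

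Nppc read 4.17, 4.66 and 4.91 in wild-type and 4.80, 4.15 and 4.58 in mutant hearts. These levels lie under the filter of 6.30 log2 units, the median of all probe sets, on 6 of 6 arrays. No difference was tested for it, and the genotypes overlapped.

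Nppa and Nppb lie side by side on mouse chromosome 4, and the DNA before their start sites is shown because GATA factors, the partners of FOG-2, are known to act on both promoters. The 250 bases before the RefSeq start site (GRCm38.p6) are given 5′ to 3′ on the strand of the gene, with that of Corin, the gene with the smaller p of the called pair. Capitals mark matches on either strand to GATAA (GATA factors), TNAAGTG (NKX2-5), TCACACC (T-box factors) or CATTCC (TEAD factors). These motifs were chosen after the sequences were seen. No match overlaps another.
Nppa, chr4:148000472-148000721, plus strand: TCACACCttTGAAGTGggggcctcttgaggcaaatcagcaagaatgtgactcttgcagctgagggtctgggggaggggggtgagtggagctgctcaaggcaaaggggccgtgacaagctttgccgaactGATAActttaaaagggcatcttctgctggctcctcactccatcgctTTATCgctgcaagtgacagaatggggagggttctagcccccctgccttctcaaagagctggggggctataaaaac
Nppb, chr4:147985650-147985899, plus strand: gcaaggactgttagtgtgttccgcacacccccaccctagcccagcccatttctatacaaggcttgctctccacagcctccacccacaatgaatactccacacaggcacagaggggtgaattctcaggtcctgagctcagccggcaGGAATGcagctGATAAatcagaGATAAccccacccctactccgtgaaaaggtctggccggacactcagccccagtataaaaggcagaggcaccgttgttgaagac
Corin, chr5:72504541-72504790, minus strand: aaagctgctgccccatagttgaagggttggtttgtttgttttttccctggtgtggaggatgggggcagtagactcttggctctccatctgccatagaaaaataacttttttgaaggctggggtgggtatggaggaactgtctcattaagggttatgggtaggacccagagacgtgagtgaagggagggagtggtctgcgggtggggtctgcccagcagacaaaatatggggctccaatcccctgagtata
The Nppa window holds GATAA 2 times, 121 and 75 bases before the start, with a T-box and an NKX2-5 match at its far end. The Nppb window also holds GATAA 2 times, 94 and 83 bases before the start, with a TEAD match just beyond them. Of 32851 start-site windows of the same length in the RefSeq table, 22.6% hold GATAA and 4.28% hold it at least 2 times. TNAAGTG is found in 10.1%, TCACACC in 3.33% and CATTCC in 12.6%. The table had windows for all 9 genes, 12 start sites in all. Besides Nppa and Nppb, a TNAAGTG stood before a Furin start and a CATTCC before an Mme start, and the other windows, Corin included, held none of the 4 motifs. A match is a string of letters and was not tied to binding by any measurement here.

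The processing enzymes gave the clearest difference. Corin, which cuts pro-ANP at the cell surface, read 11.04, 11.01 and 11.12 in wild-type replicates 1, 2 and 3. It read 11.60, 11.47 and 11.46 in mutant replicates 1, 2 and 3. Every mutant heart lay above every wild-type heart, with a gap several times the spread within either group (SD 0.06 and 0.08, n = 3). The rise was 0.45 (SE 0.06, 1.37-fold, 95% interval 0.31 to 0.60, adjusted p = 0.0113 by limma). The part of lung tissue in the Corin values was not tested. Only leaving out mutant replicate 1 ended the call (difference 0.41, adjusted p = 0.0762 by limma), while Corin was called in the other 15 of 16 alternatives.

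Furin, the proprotein convertase that cuts many precursors and is known to cut pro-BNP, read 10.63, 10.70 and 10.70 in wild-type replicates 1, 2 and 3. Its mutant values were 11.12, 11.04 and 11.16. The groups again did not overlap, and the rise was 0.43 (SE 0.06, 1.35-fold, 95% interval 0.29 to 0.57, adjusted p = 0.0126 by limma). Mutant replicate 2, the lowest mutant, was still above the wild-type hearts. The call was lost without wild-type replicate 3 (0.44, adjusted p = 0.0517 by limma), without mutant replicate 1 (0.43, adjusted p = 0.101) and without mutant replicate 3 (0.40, adjusted p = 0.0534). The difference itself stayed between 0.38 and 0.47 in all 16 alternatives. Corin and Furin were each read by 1 probe set only. Among the probe sets of like brightness, Corin ranked 9 of 1256 with means of 11 to 12 log2 units by its rise, and Furin 31 of 2609 with means of 10 to 11.

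**Figure D2:**
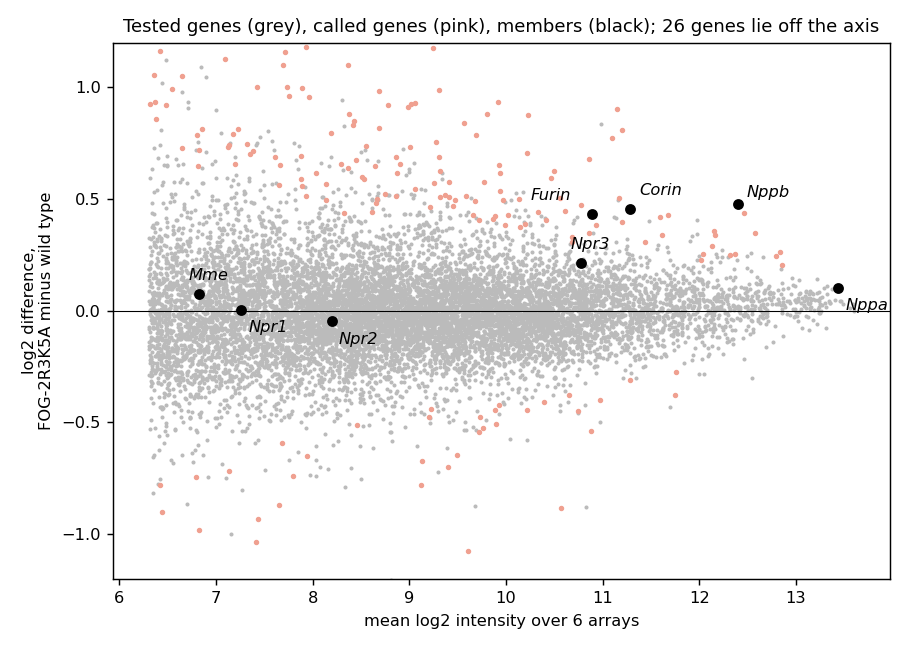
Log2 difference (FOG-2R3K5A minus wild type) against mean log2 intensity over 6 arrays for the genes tested (grey), the 196 called (pink) and the 8 tested natriuretic peptide system genes (black, named). The spread of differences narrows with brightness, Nppb, Corin and Furin lie on its upper edge, and 26 genes beyond 1.2 in either direction are not shown.

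The receptors differed in pattern. Npr1, which makes cyclic GMP in response to ANP and BNP, read 7.25, 7.33 and 7.20 in wild-type and 7.26, 7.13 and 7.40 in mutant hearts. The groups overlapped fully, and the difference was 0.00 (0.0031, SE 0.12, 95% interval -0.27 to 0.27). Npr2, the receptor of the C-type peptide, read 8.16, 8.48 and 8.01 in wild-type and 8.23, 8.25 and 8.05 in mutant hearts. The mutant values lay inside the wild-type range, and the difference was -0.04 (SE 0.13, 95% interval -0.35 to 0.26). For both genes (adjusted p = 0.994 and 0.909 by limma) the interval reaches well to both sides of 0, so equal levels are not shown.

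Npr3, the clearance receptor, was read by 3 probe sets, all with positive differences. The main one read 10.89, 10.47 and 10.66 in wild-type and 10.84, 10.88 and 10.93 in mutant hearts. Wild-type replicate 1 lay among the mutants, and the other wild-type hearts lay below them. The difference was 0.21 (SE 0.10, 95% interval -0.01 to 0.44, adjusted p = 0.367 by limma). Without wild-type replicate 1 it was 0.32, and without wild-type replicate 2 it was 0.11. The second probe set read 9.05, 8.71 and 8.74 against 9.17, 9.28 and 9.24, and the third 8.68, 8.75 and 8.35 against 8.84, 8.94 and 8.91. In these the groups did not overlap, as in 9.8% of all probe sets above the filter in that direction, with differences of 0.40 (SE 0.11) and 0.31 (SE 0.12). Tested among all 22518 probe sets above the filter, neither passed (adjusted p = 0.155 and 0.3 by limma), and 0.99% of those probe sets were called. The probe sets share the same RNA, so they are not separate samples. Npr3 is strongest in the endocardium, and of 7 endocardial and endothelial markers 0 were called. Their summed intensity was 8550 to 9356 in wild type and 9043 to 9532 in mutants. Nfatc1, an endocardial transcription factor, read 8.57, 8.28 and 8.43 against 8.59, 8.85 and 8.69, with a difference of 0.29 that did not pass. Emcn and Pecam1 were higher in every mutant than in any wild-type heart, with 0.23 and 0.12, and Tek and Cdh5 had 0.16 and 0.01. Kdr and Tie1, endothelial receptor genes, had -0.10 and -0.12, and Kdr was lower in every mutant. None of these differences passed. The part of these cells in the Npr3 values was not tested. Npr3 lies on chromosome 15, as Zfpm2 does, and a role of that position was not tested.

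Mme, which encodes the degrading enzyme neprilysin, read 7.18, 6.55 and 6.64 in wild-type and 6.87, 6.75 and 6.96 in mutant hearts. The mutant values lay inside the wild-type range, and the difference was 0.07 (SE 0.18, 95% interval -0.33 to 0.47, adjusted p = 0.881 by limma). Its other probe set lay under the filter, at 4.80 to 5.55 in all 6 hearts.

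**Figure D3:**
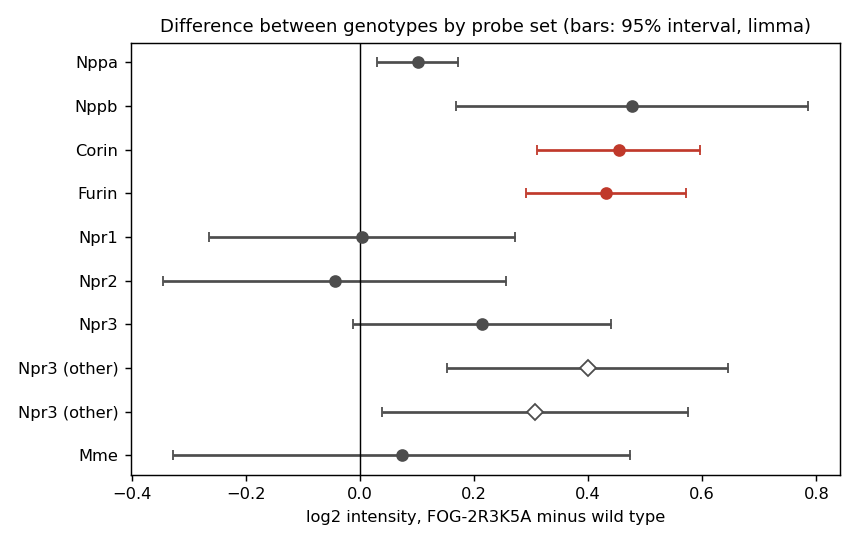
Log2 difference (FOG-2R3K5A minus wild type) with its 95% interval from limma for the 10 probe sets above the filter. Circles are main probe sets, open diamonds the other Npr3 probe sets, and red marks the genes called. The intervals of Corin and Furin begin near 0.3, and those of Npr1, Npr2 and Mme span 0.

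The wider pathway was described through 54 further genes in 3 lists, of which 48 were tested. Of these 1 rose, 2 fell and 45 did not pass, where 1.76% of all genes tested were called. Differences above 0 were found in 23 of the 48 and in 47.2% of all genes tested. All 7 tested genes of processing and clearance had positive differences on their main probe sets, with a median of 0.22 and 0 called. Dpp4, a protease known to trim BNP, read 8.58, 8.07 and 8.45 in wild type and 8.82, 8.73 and 9.02 in mutants. The groups did not overlap, and its difference of 0.49 (SE 0.14) did not pass (adjusted p = 0.143 by limma). Ece1, an endothelin-converting enzyme, read 11.03, 10.86 and 11.04 against 11.23, 11.21 and 11.16. It had a difference of 0.22 (adjusted p = 0.159 by limma), or 0.53 on its other probe set above the filter. The mean over all Ece1 probe sets, a dim one included, differed by 0.01. The convertases Pcsk6 and Pcsk7, relatives of furin, had 0.02 and 0.01. Without wild-type replicate 1, the convertase gene Pcsk5 was called higher (0.54, adjusted p = 0.0446 by limma). In that fit Pde1c, a phosphodiesterase gene, and Hey2, a transcription factor gene, were called lower (-0.76 and -0.35, adjusted p = 0.03 for each by limma). None of these 3 passed with all arrays, where the main Pcsk5 probe set had 0.33. The other Pcsk5 probe sets above the filter had 0.46 and -0.38, the latter lower in every mutant.

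Of 20 cyclic GMP signalling genes 1 fell, Rgs2, and 10 had negative differences (median -0.01). Rgs2 encodes a regulator of G protein signalling that cyclic GMP-dependent kinase is known to activate. It read 10.10, 10.10 and 10.15 in wild type and 9.49, 9.73 and 9.79 in mutants. A separation downward of this kind was seen in 9.76% of all genes tested. It fell by 0.45 (SE 0.09, 1.36-fold, adjusted p = 0.0476 by limma), and its other probe sets gave -0.37 and -0.30. That call lay close to the threshold and was lost in 12 of 16 alternatives, among them each of the 6 fits that left out an array (differences of -0.51 to -0.36). Prkg1, the kinase that cyclic GMP activates, read 9.49, 9.33 and 9.62 against 9.90, 9.75 and 10.04, a difference of 0.41 that did not pass (adjusted p = 0.0996 by limma). The other Prkg1 probe set gave 0.58. Pde5a, a phosphodiesterase that breaks down cyclic GMP, had -0.20, and its other probe set 0.03. Pln, which encodes phospholamban, a target of the kinase in heart muscle, had 0.08. Prkg1, Pde5a, Pln, Pcsk6 and Pcsk7 were picked for naming with their values known.

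Of 21 transcription factors known to act on natriuretic peptide genes, 1 rose, 1 fell and 15 had negative differences (median -0.12). Zfpm2 itself rose by 0.44 (SE 0.06, adjusted p = 0.0134 by limma), with 10.07, 10.13 and 10.14 in wild type and 10.59, 10.55 and 10.52 in mutants. That call was lost in 3 of 16 alternatives, without wild-type replicate 3, mutant replicate 1 or mutant replicate 2 (adjusted p = 0.0532, 0.115 and 0.0699 by limma). Its allele changes amino acids, so the transcript level does not check the labels. Tbx20, a T-box factor of cardiac muscle, read 11.82, 12.05 and 11.93 in wild type and 11.44, 11.56 and 11.66 in mutants. It fell by 0.38 (SE 0.08, adjusted p = 0.0461 by limma), a call lost in 9 of 16 alternatives. Those include median centring and 5 of the 6 fits without an array, all but that without wild-type replicate 1. Gata6 and Gata4, which bind the GATA motif, had differences of -0.50 and -0.31 that did not pass (adjusted p = 0.173 and 0.52 by limma). Gata6 read 11.07, 11.58 and 11.00 against 10.85, 10.83 and 10.48, without overlap, and Gata4 overlapped on its main probe set. The other Gata4 probe set had -0.405, without overlap, and did not pass. These GATA genes were picked with their values known. Ostn was not analysed here.

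**Figure D4:**
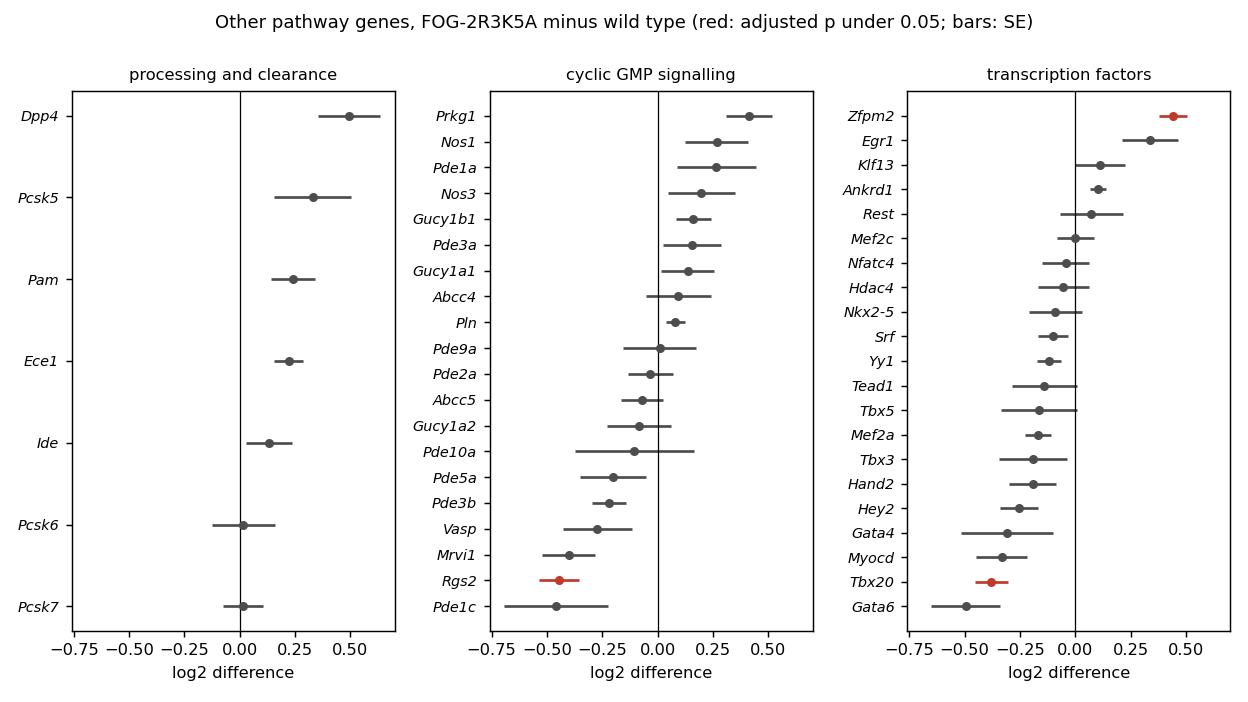
Log2 difference (FOG-2R3K5A minus wild type) with its SE for the 48 tested genes of the 3 pathway lists, each panel in order of the difference. Red marks the genes called, Rgs2, Zfpm2 and Tbx20, and the 7 genes of processing and clearance all lie at or above 0.01.

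The atria and the trabeculae, where Nppa and Nppb are transcribed, were checked by their own markers. Atrial markers summed to 25403 to 27340 in wild-type and 27060 to 27564 in mutant hearts, and 1 of 8 was called. That was Kcnj3, an atrial potassium channel gene, which rose by 0.69 (SE 0.09), while Myl4 and Sln, of atrial muscle, had 0.01 and 0.04. Myl7, also of atrial muscle, read 13.23, 13.10 and 13.12 against 13.30, 13.29 and 13.29, higher in every mutant, and its difference of 0.14 did not pass. The atrial markers Nr2f2, Stard10 and Nr2f1 had -0.25, -0.17 and -0.12, and Dkk3 had 0.14, none of which passed. Of 5 trabecular markers 0 were called, with sums of 2304 to 3067 and 2769 to 3045. Slit2, Irx3, Bmp10 and Gja5 had 0.42, 0.13, 0.03 and -0.0025, and Cpne5, lower in every mutant, had -0.38. Of 6 ventricular markers 1 rose, Mpped2. Hey2 and Irx4 were lower in every mutant than in any wild-type heart, with -0.25 and -0.13, and did not pass. For Hey2 the margin was very small, 11.3545 in wild-type replicate 1 against 11.3542 in mutant replicate 1. Such a separation downward was seen in 9.76% of all genes tested. The ventricular sums were 24930 to 26341 and 26024 to 27173. The groups overlapped in these 3 sums, and the part of atrial or trabecular tissue in the peptide values was not tested.

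The genes beside Nppa and Nppb were compared, since the pair shares a stretch of chromosome 4. In the order of the gene table, Mfn2, Plod1 and 2510039O18Rik lie on the Nppb side and Clcn6, Agtrap and Draxin on the Nppa side, counting genes with a usable probe set. All 6 overlapped between the genotypes. Differences of the 5 tested ran from -0.19 to 0.14, and 0 passed (adjusted p from 0.596 to 0.864 by limma). Draxin, at 4.60 in wild type and 4.80 in mutants, lay under the filter.

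Among all tested genes, those whose profile over the 6 arrays lay nearest to that of Nppa were Ankrd1, Ifnar1 and Cd81. Their root mean square distances, after each profile was centred, were 0.01, 0.02 and 0.02 log2 units. Ankrd1, a muscle ankyrin repeat protein induced by load, read 12.85, 12.89 and 12.88 in wild type and 12.97, 12.99 and 12.96 in mutants. Its difference of 0.10 was the size of that of Nppa and did not pass, and its other probe set gave 0.16. Nearest to Nppb were Ankrd23, another muscle ankyrin repeat gene, Ahnak2 and Fos, at distances of 0.08, 0.10 and 0.10. Ankrd23 read 6.48, 7.21 and 7.13 in wild type, with replicate 1 the lowest as in Nppb, and 7.61, 7.53 and 7.38 in mutants. The differences of these 3 genes were 0.57, 0.57 and 0.31 and did not pass. The nearest profiles were chosen by likeness over the same 6 arrays, so that choice sets the sign of these differences and their separation between the genotypes.

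**Figure D5:**
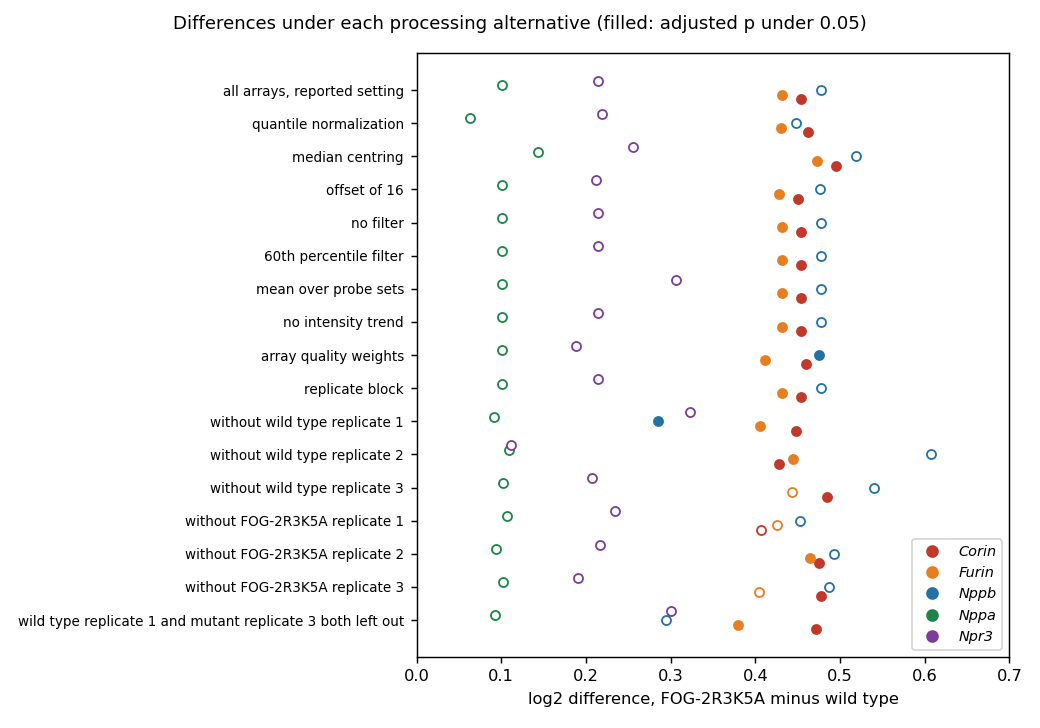
Log2 difference (FOG-2R3K5A minus wild type) of 5 genes under the reported setting and 16 alternatives, filled where the adjusted p was under 0.05. Corin and Furin stay between 0.38 and 0.50, while Nppb runs from 0.29 to 0.61 and is called without wild-type replicate 1 and with array quality weights.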

How the data were processed

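Total RNA of whole hearts was labelled with biotin and hybridised to 1-colour Affymetrix mouse arrays, per the labels' protocols. The deposited table holds the authors' linear intensity values, with array medians within 0.12 log2 units of each other. Whether and how they were scaled between arrays is not given in the sources used here. No detection call was used, and precision is limited by the number of arrays. Besides 64 array controls, the 45101 probe sets comprised 34945 annotated to 1 gene symbol, 932 to several and 9160 to none.

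Intensities were floored at 1 and log2-transformed. Each of 18193 genes was represented by its brightest probe set, and the 11113 whose mean exceeded the median of non-control probe set means (6.30) were tested with limma 3.58.1 in R 4.3.3 (intensity trend, two-sided, Benjamini-Hochberg). A second fit took all 22518 probe sets above that level. The gene-level fit was tested on simulated data. Symbols and start-site windows came from RefSeq (GRCm38.p6), which no file names as the array's build. Figures used matplotlib 3.10.9.

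The genes, lists and tests were chosen with earlier results of these data known. The naming rule took all 9 genes, of each pathway list the genes called or else the 2 with the smallest p, 3 neighbours on each side of Nppa and Nppb, and the 3 nearest profiles of each. Marker lists for smooth muscle, fibroblast and valve, erythroid, leukocyte, skeletal muscle and liver cells were also summed. Alternatives covered normalization, offset, filter, probe sets, variance model, threshold, replicate number and each array left out, plus 1 added later.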

Additional observations from a re-analysis of the deposited data

How the results depend on the processing

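Corin, Furin, Nppb, Nppa and Npr3 kept a positive difference in all 16 alternatives. With all arrays 2 of the 9 genes were called, and over the 6 fits without an array 0 to 3 were, the former without mutant replicate 1 and the latter without wild-type replicate 1. Leaving out 1 array gave 37 to 451 genes against 196, 34 to 567 probe sets against 223 and 0 to 5 pathway genes against 3. Without a filter 81 genes, 53 probe sets and 1 pathway gene were called, and without the intensity trend 119 genes, 119 probe sets and 1 pathway gene. The mean over probe sets gave 125 genes and 1 pathway gene, and median centring 1 pathway gene. Array quality weights gave 429 genes and 525 probe sets, and a threshold of 0.1 gave 369 genes and 486 probe sets. With wild-type replicate 1 and mutant replicate 3 both left out, chosen after seeing the data, 144 probe sets were called. The causes were not tested.

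With the replicate number as a block 234 genes and 5 pathway genes were called (Myocd and Prkg1 besides the 3), and the same 2 of the 9, Corin and Furin. Deviations of same-numbered samples correlated at -0.06, 0.13 and 0.41, and those of differently numbered samples at -0.32 to 0.25. With 3 samples per genotype these values do not settle whether the numbers pair the samples.

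Signs turned only for genes that were not called. Over the fits without an array, Npr1 ran from -0.0664 to 0.0706, Npr2 from -0.1466 to 0.0877, Mme from -0.0488 to 0.2676, Mfn2 from -0.1806 to 0.0331, Clcn6 from -0.0157 to 0.1783 and Agtrap from -0.0094 to 0.2846. With array quality weights Npr1 had -0.0272, Npr2 0.0562 and Clcn6 -0.0461, and with both arrays left out Npr1 had -0.0727 and Clcn6 -0.0599. Mme gave no value with the 60th percentile filter or the mean over probe sets. Levels near the filter limit what could be seen of Nppc, Npr1 and Mme, and brightness near the top of the range limits Nppa.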

Other observations

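Hormones that act on vascular tone beside the natriuretic peptides were looked at after the results above were seen, through 12 genes of the adrenomedullin, endothelin and angiotensin systems. Of these 6 were tested, 0 were called by limma and 3 had an unadjusted p under 0.05, all higher in mutants (8.4% of all genes tested). Ednrb, the endothelin B receptor, read 11.51, 11.14 and 11.19 in wild-type and 11.59, 11.73 and 11.73 in mutant hearts. The groups did not overlap, and its difference of 0.40 (SE 0.10) did not pass (adjusted p = 0.0798 by limma). The other Ednrb probe sets gave 0.58 without overlap and 0.31 with overlap between the genotypes, and neither passed. Adm, which encodes adrenomedullin, a peptide that widens vessels, read 7.88, 8.06 and 8.19 against 8.59, 8.25 and 8.71, a difference of 0.47 (SE 0.14) that did not pass (adjusted p = 0.155 by limma). The other Adm probe set gave 0.61 (SE 0.11) and passed in the fit of all probe sets (adjusted p = 0.0453 by limma). Calcrl, its receptor, had 0.17, and Edn1 and Agtr1a had 0.08 and -0.14. Agt, Ace and Agtr2 lay under the filter.

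Of 11 other convertases, membrane serine proteases and their inhibitors, also chosen late, 3 were tested and 0 were called by limma, with 1 at an unadjusted p under 0.05. That was Spint2, an inhibitor of membrane serine proteases, at 10.16, 9.79 and 10.02 in wild-type and 10.37, 10.41 and 10.39 in mutant hearts, with a difference of 0.40 (SE 0.10, adjusted p = 0.0867 by limma). Hpn, St14, Tmprss2 and Tmprss6, which encode relatives of corin, lay under the filter.

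Of the other marker lists, summed intensity was 10784 to 11984 in wild type and 11802 to 12379 in mutants for smooth muscle and 26003 to 28298 against 27221 to 29307 for fibroblast and valve. It was 1195 to 1287 against 1231 to 1747 for erythroid, 1045 to 1399 against 1289 to 1520 for leukocyte and 187 to 465 against 203 to 261 for liver genes. Skeletal muscle genes summed to 391 to 471 against 283 to 320, and 1 of 5 was tested, Tnni2, which fell by 1.04.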
